A study of Schmidtea mediterranea with 35 samples.

Results

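The comparison described here set zfp1 RNAi against control RNAi after 13 days in neoblasts, the stem cells of the planarian Schmidtea mediterranea. It was taken from the labels of RNAi target and day, and it holds 7 of the 35 libraries of the series. These were zfp1 RNAi at day 13, replicates 1, 2, 4 and 5, and unc22 RNAi at day 13, replicates 1, 4 and 5. The labels present unc22 as a non-targeting control. All groups came from the asexual clonal line CIW4, so every library shares one genetic background, and all ate bacteria carrying double-stranded RNA in 3 feedings given 3 days apart. The cells were X1 cells, a gate on Hoechst-stained cells that holds cycling neoblasts, and polyA RNA was sequenced. The other libraries used below were zfp1 and unc22 RNAi at days 6 and 9 (4 libraries each) and p53 RNAi at day 13 (4 libraries). The labels do not say whether replicates came from separate cultures, and p-values then measure library-to-library spread alone, which could be technical.

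Neoblasts divide and are the cells from which planarians replace all their tissues. They are a mixed population, and some already express genes of the tissue they will form. In planarians zfp-1 encodes a zinc finger protein of the neoblasts that give rise to the epidermis, and animals without it fail to make the early epidermal progeny. The knockdown at day 13 therefore addresses which transcripts of the sorted population are present at other levels when this route is blocked. In bulk RNA of sorted cells, fewer cells of a type and less RNA per cell cannot be told apart.

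The file lists transcripts by assembly identifier alone, and no annotation was used here. The level of zfp1 itself, the markers of neoblast classes and of other cell types in the gate were therefore not analysed here, and no identifier below is given a function. Levels are RPKM, reads per kilobase of transcript scaled to library size. Every log2 fold change was taken after adding 1 RPKM, so changes of transcripts at low levels come out too small.

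Depth and complexity were uneven. The zfp1 day 13 libraries held 22551650, 24549054, 23440305 and 9923011 recovered reads in replicates 1, 2, 4 and 5, against 11189292, 18534723 and 11272890 reads in unc22 replicates 1, 4 and 5. Both replicate 5 libraries stood apart. Of 25462 transcripts, 5021 were at 0 in zfp1 replicate 5, against 365 to 761 in the other zfp1 libraries, and 4546 were at 0 in unc22 replicate 5, against 1720 and 721 in the other unc22 libraries. The most abundant transcript took 32.3% of reads in zfp1 replicate 5 and 27.5% in unc22 replicate 5, against 16.7% to 20.2% in the other 5 libraries. Results are therefore also given without both libraries. Every pair of libraries in these groups differed by more than sampling noise.

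At day 13 the cells after zfp1 RNAi differed from the controls in 851 transcripts, 443 higher and 408 lower. This was 4.43% of the 19206 transcripts tested, 2.31% higher and 2.12% lower, by limma at a Benjamini-Hochberg adjusted p under 0.05. The 2 directions differed in their largest changes. Among the lower transcripts the median log2 fold change was -0.94, 184 fell at least 2-fold on this scale (a log2 fold change of 1 or more), 43 had a log2 fold change of -2 or below and 17 of -3 or below. Among the higher transcripts the median was 0.89, 174 reached 1, 11 reached 2 and none reached 3. With a pseudocount of 0.1 RPKM in place of 1, 121 called transcripts lay at -2 or below and 95 at 2 or above, while 74 lay at -3 or below and 3 at 3 or above. At a cutoff of 1 the order was the reverse with that pseudocount, with 244 at -1 or below and 377 at 1 or above. The median over all tested transcripts was 0.02.

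**Figure D1:**
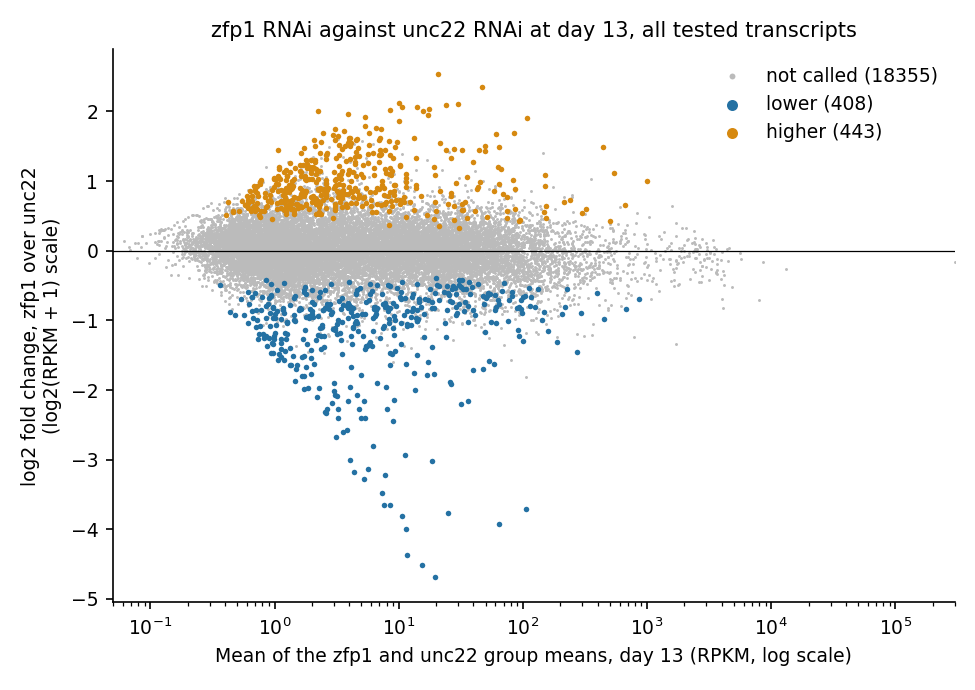
Log2 fold change of zfp1 RNAi over unc22 RNAi at day 13 (vertical axis, log2(RPKM + 1) scale) against the mean of both group means (horizontal axis, RPKM on a log scale) for all 19206 tested transcripts, each a point. The 408 lower transcripts reach -4.69 and the 443 higher ones reach 2.53.

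The count depended on how the spread was estimated and on whether a replicate block was used. Fitted on the 7 libraries alone, 190 transcripts (0.989%) were called, 71 higher (0.37%) and 119 lower (0.62%), of which 70 and 119 were among those above. With the replicate number within each day as a block, which also enters the fold changes, 1271 (6.62%) were called. Of these, 674 were higher (3.51%) and 597 lower (3.11%). With the block on the 7 libraries alone 94 (0.489%) were called, 30 higher (0.156%) and 64 lower (0.333%).

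The transcript with the largest fall was SMED30012332. It stood at 0.662, 0.476, 0.505 and 0.512 RPKM in zfp1 replicates 1, 2, 4 and 5, against 39.6, 36.9 and 39.5 RPKM in unc22 replicates 1, 4 and 5. The groups were far apart, with little spread in either, and both replicate 5 libraries lay with the others of their group. Its log2 fold change was -4.69 ± 0.19 (SE; limma, Benjamini-Hochberg adjusted p = 1.3e-17). The zfp1 values rest on 21, 17, 16 and 5 reads, against 587, 939 and 401 reads in the controls. The fall was already present earlier, with 2.92 ± 1.11 RPKM after zfp1 RNAi at day 6 against 31.5 ± 2.77 in the controls, and 1.36 ± 0.132 at day 9 against 39.6 ± 4.48 (SD, n = 4 each).

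The next largest fall was in SMED30011490. Its level was 0.137, 0.305, 0.550 and 0.223 RPKM in the zfp1 libraries, against 22.9, 22.5 and 45.3 RPKM in the unc22 libraries. No zfp1 library came near a control, and unc22 replicate 5 lay well above the other controls. The log2 fold change was -4.51 ± 0.25 (SE; limma, Benjamini-Hochberg adjusted p = 3.9e-14), and -4.17 ± 0.28 without both replicate 5 libraries, where it was also called. The zfp1 values rest on 1 to 8 reads, so their order carries no information. The 10 largest falls spanned log2 fold changes from -4.69 to -3.65. All 10 were also called in the fit on the 7 libraries alone, without both replicate 5 libraries and with the block.

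The largest rise was in SMED30025751. It stood at 28.8, 34.9, 30.8 and 49.0 RPKM in zfp1 replicates 1, 2, 4 and 5, against 5.93, 5.81 and 4.16 RPKM in unc22 replicates 1, 4 and 5. The groups did not overlap, and replicate 5 gave the highest zfp1 value and the lowest control value. The log2 fold change was 2.53 ± 0.36 (SE; limma, Benjamini-Hochberg adjusted p = 1.4e-05), and 2.24 ± 0.43 without both replicate 5 libraries, where it was also called. The next was SMED30012371, at 69.2, 75, 70.5 and 101 RPKM in the zfp1 libraries against 18.8, 12.5 and 12.8 RPKM in the unc22 libraries. Its log2 fold change was 2.35 ± 0.25 (SE; limma, Benjamini-Hochberg adjusted p = 5.2e-08). The lowest zfp1 library lay well above the highest control. The 10 largest rises spanned 2.01 to 2.53. All 10 were called without both replicate 5 libraries, 8 in the fit on the 7 libraries alone and 5 in that fit with the block.

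**Figure D2:**
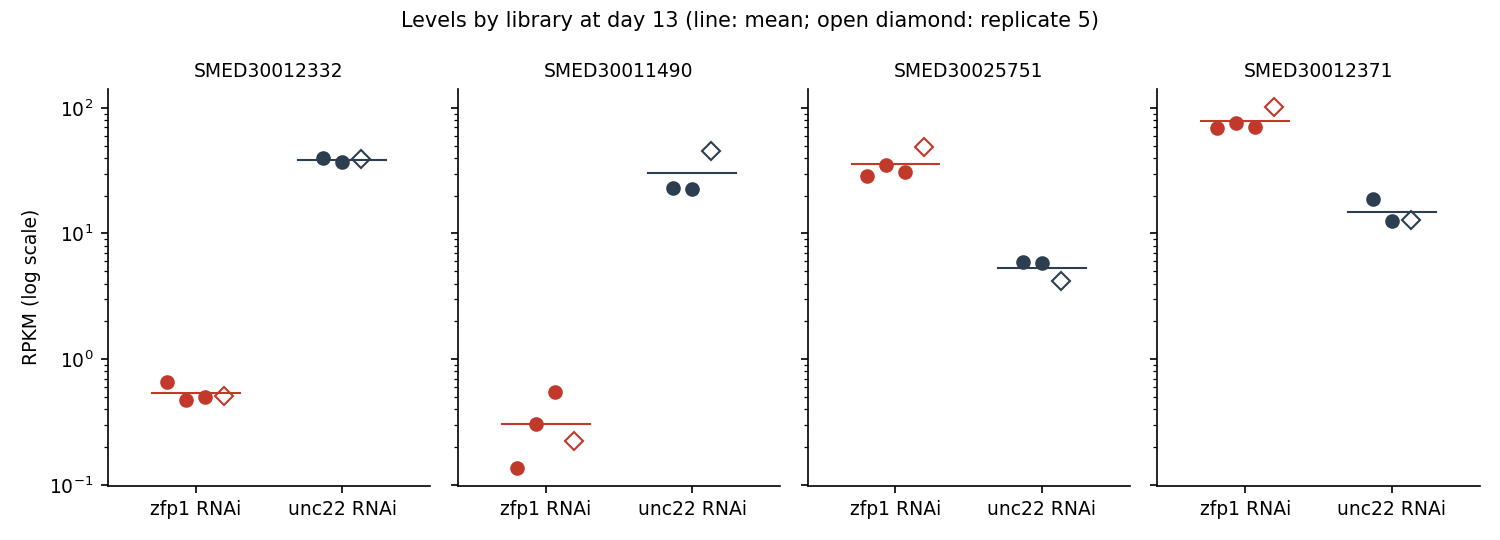
RPKM in each day 13 library (log scale) of the 2 transcripts with the largest falls and the 2 with the largest rises, zfp1 RNAi left and unc22 RNAi right in each panel. Points are libraries, open diamonds are replicate 5 and lines are group means. The groups do not overlap in any panel.

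The overlap of the groups was counted for each transcript. Over all tested transcripts, the 4 zfp1 libraries all lay below the 3 controls for 1360 (7.08%) and all above for 1149 (5.98%). Among the called transcripts this held for 382 of the 408 lower and 410 of the 443 higher ones. All 3 same-numbered pairs were lower after zfp1 RNAi for 406 of the 408 and higher for 440 of the 443, against 22.1% of all tested transcripts in each direction. In the lower transcripts the median level was 2.37, 2.55, 2.59 and 2.34 RPKM in zfp1 replicates 1, 2, 4 and 5, against 7.60, 7.23 and 9.17 RPKM in unc22 replicates 1, 4 and 5. In the higher transcripts it was 4.22, 4.90, 4.46 and 4.54 RPKM in the zfp1 libraries, against 1.62, 1.92 and 1.45 RPKM in the unc22 libraries. These counts and medians describe lists chosen on the same libraries, which by itself makes them high or far apart, and are no test.

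In terms of the library as a whole the changes were modest. The 408 lower transcripts took 1.07%, 1.09%, 1.04% and 0.756% of reads in the zfp1 libraries, against 1.71%, 1.75% and 1.70% in the unc22 libraries. The low value was that of zfp1 replicate 5, while unc22 replicate 5 lay with the other controls. The 443 higher transcripts took 1.58%, 1.70%, 1.46% and 1.34% of reads in the zfp1 libraries, against 0.814%, 0.832% and 0.647% in the unc22 libraries. Among the 10 largest falls were 2 transcripts with high control levels, 1 at a mean of 14.4 RPKM in zfp1 libraries against 197 RPKM in unc22 libraries and 1 at 6.46 against 121 RPKM. The mean of 121 RPKM was raised by unc22 replicate 5, at 203 RPKM against 75.9 and 84.7 RPKM in replicates 1 and 4. The 4 most abundant falls without overlap between groups had log2 fold changes from -0.97 to -0.60, and the 4 most abundant rises from 0.42 to 0.66. None of these 8 was called in the fit on the 7 libraries alone.

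Rises and falls were found at different levels of expression. To set aside the day 13 values, transcripts were placed by their mean in the unc22 libraries of day 9, where the median was 6.38 RPKM for the lower list, 2.15 RPKM for the higher list and 3.68 RPKM for all tested transcripts. Of transcripts under 1 RPKM there, 2.88% were called higher and 0.918% lower. Between 5 and 20 RPKM the shares were 1.6% higher and 2.75% lower, between 20 and 100 RPKM 1.23% and 2.55%, and at 100 RPKM or more 1.40% and 1.83%. A low transcript has little room to fall on this scale.

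A set of 89 lower transcripts stood under 1 RPKM in all 4 zfp1 libraries and at or above 1 RPKM in all 3 controls. Their control means ranged from 1.13 to 38.7 RPKM with a median of 2.32 RPKM, so most were weakly expressed in control cells. Of these 89, 72 were also under 1 RPKM in all 4 zfp1 libraries of day 9 and 50 in all 4 of day 6, against 2006 and 1277 of the 19206 tested transcripts. On the control side, 52 of the 89 were at or above 1 RPKM in all 4 unc22 libraries of day 9 and 57 in all 4 of day 6. At day 13, 1 of the lower transcripts had no read in any zfp1 library. In the opposite direction, 69 higher transcripts were at or above 1 RPKM in all zfp1 libraries and under it in all controls, with zfp1 means from 1.10 to 4.19 RPKM. Both sets come from lists chosen on the same libraries. How many of all tested transcripts meet these day 13 rules, or the control-side rule at days 6 and 9, is not given here. The counts of 89, 69, 52 and 57 therefore describe these sets alone.

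Leaving out both replicate 5 libraries left 3 zfp1 libraries and 2 controls. In that fit 586 transcripts (3.05%) were called, 298 higher (1.55%) and 288 lower (1.5%), and 264 and 245 of them were among the 851. All 851 kept the sign of their change, but the libraries kept here had also chosen them, which by itself favours this. The median log2 fold change of the 408 lower transcripts was -0.85 and that of the 443 higher ones 0.83. The 163 lower transcripts that were no longer called had a median of -0.82 with replicate 5 and -0.59 without it, whereas the 245 that were still called had -1.14 and -1.13. The 179 higher transcripts no longer called had 0.76 with replicate 5 and 0.65 without it. The split into still called and no longer called was made on these same values, so the contrast is no result.

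**Figure D3:**
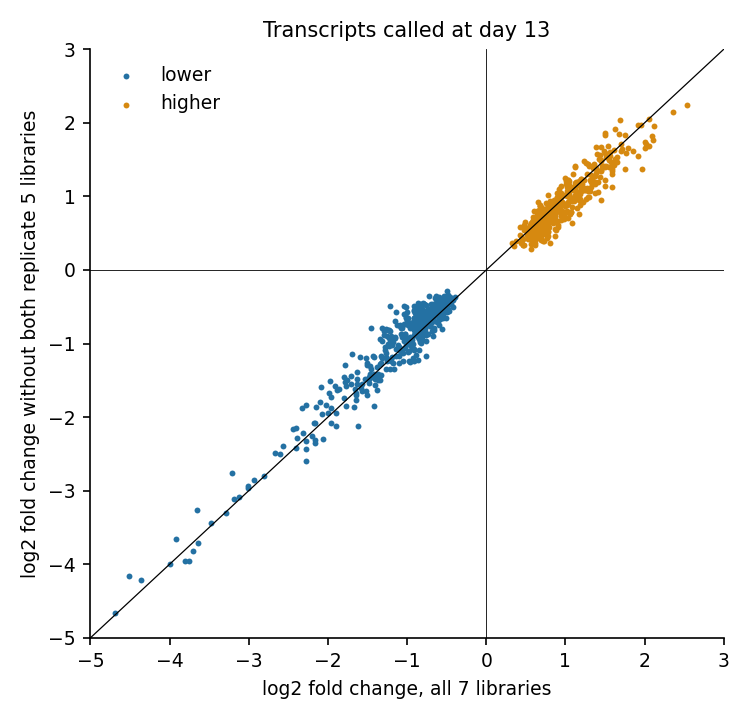
Log2 fold change of the 851 called transcripts with all 7 libraries (horizontal axis) and without both replicate 5 libraries (vertical axis), zfp1 RNAi over unc22 RNAi on the log2(RPKM + 1) scale; the diagonal marks equal values. All points lie in the 2 quadrants of equal sign, and the largest falls lie near the diagonal. Both axes share libraries, which by itself favours equal signs.

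The standard errors differed between these fits. The median SE over tested transcripts was 0.248 with all libraries of the series, 0.270 with the 7 libraries alone and 0.162 with the 5 libraries left after removing replicate 5 and fitted alone. This last fit called 1052 transcripts (5.48%), 503 higher (2.62%) and 549 lower (2.86%). In same-numbered pairs, the median log2 difference of the lower list was -0.88, -0.82 and -1.21 in pairs 1, 4 and 5. For the higher list it was 0.87, 0.84 and 1.04, so pair 5 gave the larger differences in both lists. The same libraries chose the lists, so the differences in the other pairs are no separate support. A total of 113 lower and 67 higher transcripts were called in each of 5 fits, namely with all libraries, without replicate 5, the 7 libraries alone, the 5 libraries alone and with the replicate block. Among these 113 the median level was 0.386 RPKM in zfp1 cells against 6.06 RPKM in control cells, and among the 67 it was 7.49 RPKM against 2.12 RPKM. The 5 fits share libraries, and these levels come from the libraries that chose the transcripts, so they are no test.

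The lists were then followed in the libraries of days 6 and 9, which the day 13 values did not use, although all days share the estimate of spread. Of the 408 lower transcripts, 394 (96.6%) had a negative fold change at day 9, where 52.1% of all tested transcripts did, and 367 (90.0%) at day 6, where 58.0% did. Of these, 167 were called lower at day 9 and 130 at day 6, by limma, against 1.07% and 0.88% of all tested transcripts. Of the 443 higher transcripts, 430 (97.1%) were positive at day 9, where 47.9% of all tested were, and 374 (84.4%) at day 6, where 42.0% were. Of these, 252 were called higher at day 9 and 50 at day 6, against 2.16% and 0.422% of all tested transcripts.

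The median log2 fold change of the lower list was -0.44 at day 6, -0.51 at day 9 and -0.94 at day 13, and that of the higher list was 0.30, 0.71 and 0.89. The lists were chosen at day 13, which by itself makes that day's values large, so the order of the days is no result. Of the lower list, 119 transcripts were called on all 3 days, 48 at days 9 and 13, 11 at days 6 and 13, and 230 at day 13 alone. Those 230 had a median of -0.82 at day 13 and -0.26 at day 9, and 216 of them were negative at day 9. Of the higher list, 49 were called on all 3 days, 203 at days 9 and 13, 1 at days 6 and 13, and 190 at day 13 alone, of which 177 were positive at day 9. A call on 1 day and not on another does not show that the change differed.

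**Figure D4:**
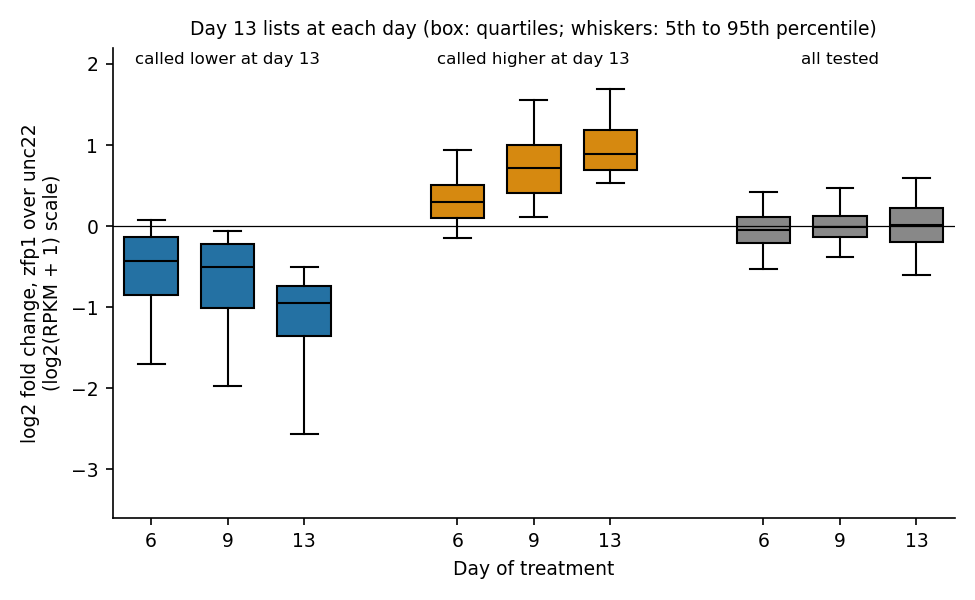
Log2 fold change of zfp1 RNAi over unc22 RNAi (vertical axis, log2(RPKM + 1) scale) at days 6, 9 and 13 for the 408 transcripts called lower at day 13, the 443 called higher and all 19206 tested. Boxes give quartiles, and whiskers the 5th and 95th percentiles over transcripts. Medians of the lower list lie at -0.44, -0.51 and -0.94, those of all tested transcripts near 0.

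The levels behind these fold changes are given by day. The median of the lower list was 3.38 ± 0.366, 2.93 ± 0.158 and 2.46 ± 0.125 RPKM after zfp1 RNAi at days 6, 9 and 13 (SD over libraries), against 5.85 ± 0.239, 6.26 ± 0.404 and 8.0 ± 1.03 RPKM after unc22 RNAi. The median of the higher list was 3.5 ± 0.320, 4.71 ± 0.276 and 4.53 ± 0.282 RPKM after zfp1 RNAi, against 2.51 ± 0.192, 2.17 ± 0.172 and 1.66 ± 0.238 RPKM after unc22 RNAi (n = 4 in each group, 3 for unc22 at day 13). Day 13 values of both groups chose the lists, so the step to day 13 in either group is no result. With the day 9 unc22 libraries as controls for the day 13 zfp1 libraries, 910 transcripts (4.74%) were called, 522 higher (2.72%) and 388 lower (2.02%).

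Whether the zfp1 effect itself differed between days was tested as a difference of differences. Between days 13 and 6, 46 transcripts (0.24%) were called by limma. Over all tested transcripts the difference was called negative for 0.109% and positive for 0.13%. Of the 46, 17 were in the lower list and more negative at day 13, 23 were in the higher list and more positive, and 6 were not called at day 13. The day 13 values that chose the lists also enter this difference. That by itself favours such membership and direction, which are therefore no result. The calls ended when the compared groups were fitted alone, where none passed, while limma-voom on all libraries called 41. An unadjusted limma p under 0.05, which 5% would have with no change, depended on the fit. It was found for 766 transcripts (3.99%) in the compared groups alone and 919 (4.78%) there with the replicate block. With all libraries it was found for 1382 (7.2%), and without the 3 libraries with the most transcripts at 0 for 2074 (10.8%). Without both replicate 5 libraries 23 were called.

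The largest such difference among the falls was in SMED30002134. At day 13 it stood at 0.374, 0.199, 0.0748 and 0 RPKM in zfp1 replicates 1, 2, 4 and 5, against 26.2, 17.5 and 25.7 RPKM in the controls. The 0 is a count of no reads, which in that library allows up to 0.728 RPKM. At day 6 it averaged 23.2 ± 24.5 RPKM after zfp1 RNAi against 31.8 ± 13.5 after unc22 RNAi, and at day 9 1.5 ± 1.39 against 26.4 ± 2.75 (SD, n = 4 each). The groups overlapped at day 6, only through zfp1 replicate 1, and lay apart at days 9 and 13. Its log2 fold change was -4.37 ± 0.46 at day 13 and differed from that at day 6 by -3.57 ± 0.63 (SE; limma, Benjamini-Hochberg adjusted p = 0.0047). SMED30011419 differed by -2.47 ± 0.47 (limma, adjusted p = 0.010), and by -2.47 ± 0.53 without both replicate 5 libraries, where the size was the same and the call was lost. In both, zfp1 day 6 replicate 1, a library with 4945 transcripts at 0 against 519 to 3588 in the rest of its group, gave the highest zfp1 value at that day, 59.9 RPKM for SMED30002134 and 24.4 RPKM for SMED30011419. The other 3 zfp1 libraries of day 6 held 8.79 to 12.7 RPKM and 4.73 to 5.03 RPKM of them. These lay below all day 6 controls, which held 22.3 to 51.1 RPKM and 18.5 to 30.7 RPKM. For both transcripts the highest of these controls was unc22 replicate 1. Without zfp1 day 6 replicate 1 the differences between days 13 and 6 were -2.97 ± 0.53 and -1.95 ± 0.33, and both were still called.

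Among the rises, the largest difference between days 13 and 6 was in SMED30012371, the transcript with 69.2 to 101 RPKM at day 13. After zfp1 RNAi it averaged 60.1 ± 24.3, 76.2 ± 6.65 and 79.0 ± 15.1 RPKM at days 6, 9 and 13. After unc22 RNAi it averaged 49.7 ± 8.09, 45.2 ± 12.4 and 14.7 ± 3.55 RPKM (SD, n = 4, and 3 for unc22 at day 13). The zfp1 level stayed within its spread while the control level at day 13 was the low one. The control was lower at day 13 than at day 6 by a log2 fold change of -1.70 ± 0.25 (SE; limma, Benjamini-Hochberg adjusted p = 0.00015). The transcript was chosen for a difference that holds both of these control groups, so this p-value is no separate support. The zfp1 effect differed between the days by 2.15 ± 0.34 (limma, adjusted p = 0.0017). SMED30006136 showed the same course, at 35.5 ± 11.5, 39.6 ± 2.33 and 39.2 ± 7.60 RPKM after zfp1 RNAi against 29.9 ± 3.15, 22.4 ± 4.73 and 8.48 ± 1.98 RPKM after unc22 RNAi. Its effect differed between days 13 and 6 by 1.90 ± 0.31 (limma, adjusted p = 0.0021).

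Between days 13 and 9 the zfp1 effect differed in 1 transcript (0.00521%), SMED30022975. It stood at 21.7, 26.5, 27.1 and 28.1 RPKM in the zfp1 libraries of day 13, against 37.2, 34.8 and 40.3 RPKM in the controls, a log2 fold change of -0.52 ± 0.12 (SE; limma, Benjamini-Hochberg adjusted p = 0.0050). At day 6 it averaged 44.8 ± 3.19 RPKM after zfp1 RNAi against 33.0 ± 1.96 after unc22 RNAi, and at day 9 58.1 ± 6.27 against 35.4 ± 1.32 (SD, n = 4 each). It was thus above the control at days 6 and 9 and below it at day 13, without overlap between groups on any day. The difference between days 13 and 9 was -1.21 ± 0.16 (limma, adjusted p = 0.00031), and with the compared groups fitted alone there was no call. In that fit 655 transcripts (3.41%) had an unadjusted limma p under 0.05. With all libraries 618 (3.22%) did, without both replicate 5 libraries 365 (1.9%), and with the replicate block on the compared groups 2426 (12.6%). The day 13 fall itself was not called with the compared groups fitted alone. Without both replicate 5 libraries, the compared groups alone did give the call between days 13 and 9 (limma, adjusted p = 0.043). The day 13 fall was again not called there (limma, adjusted p = 0.053).

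**Figure D5:**
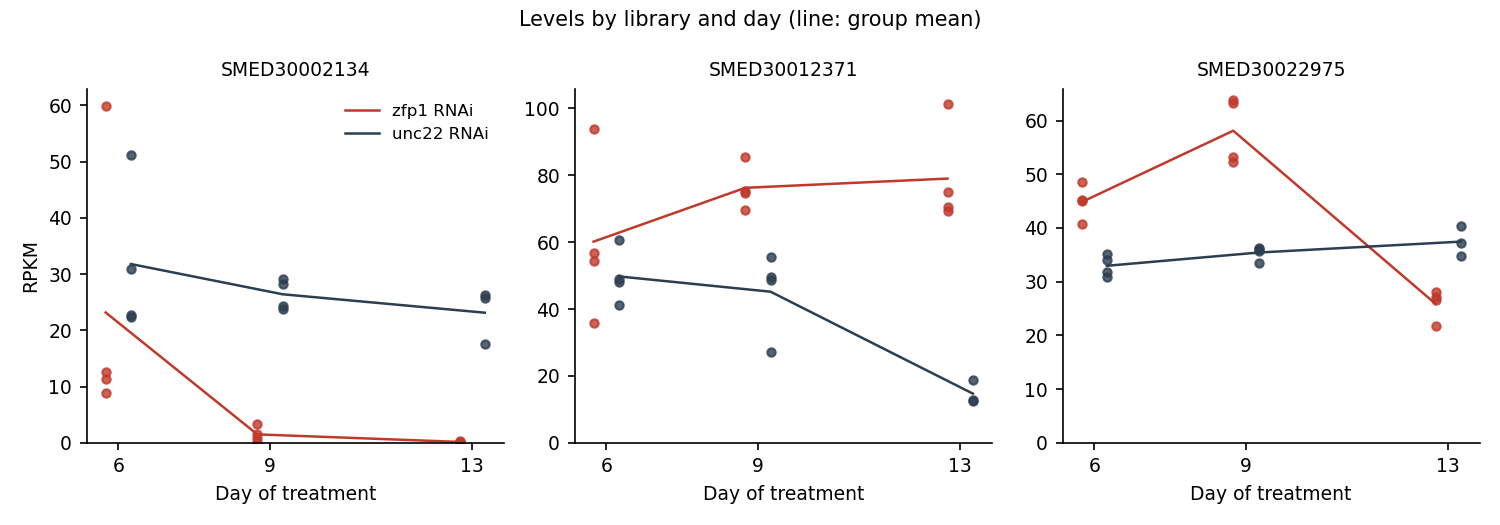
RPKM by library (points) and group mean (lines) at days 6, 9 and 13 for 3 transcripts whose zfp1 effect differed between days, zfp1 RNAi drawn left of unc22 RNAi at each day. SMED30002134 is near 0 from day 9 after zfp1 RNAi, SMED30012371 is low in the day 13 controls, and SMED30022975 lies above the control at days 6 and 9 and below it at day 13.

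The day 13 lists were set beside p53 RNAi of the same day, a knockdown of the planarian homolog of the tumour suppressor, which in planarians is also expressed in neoblasts of the epidermal route. Both knockdowns are compared with the same 3 controls, so only levels and their direct difference are given. The median level of the lower list was 2.54 RPKM in zfp1, 3.27 RPKM in p53 and 8.28 RPKM in unc22 libraries, taken over group means. That of the higher list was 4.52, 5.14 and 1.66 RPKM in the same order of groups. Tested directly, zfp1 and p53 RNAi differed in 1976 of all transcripts (10.3%), 903 higher (4.7%) and 1073 lower (5.59%) after zfp1 RNAi. Among the lower list 80 of 408 differed, 58 of them lower after zfp1 RNAi, and among the higher list 138 of 443 differed, 68 of them higher after zfp1 RNAi. The same zfp1 libraries chose the lists, which by itself sets zfp1 apart from p53 RNAi in them. The list counts and medians are therefore no test. The count over all transcripts was 875 without zfp1 replicate 5, 3080 without zfp1 replicate 2, 1296 without p53 replicate 1, 1039 without p53 replicate 2, 1011 without p53 replicate 3 and 555 in the 2 groups alone.

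Of the falls that went further after zfp1 RNAi than after p53 RNAi, the largest was in SMED30022344. It stood at 4.12, 3.21, 2.68 and 3.33 RPKM after zfp1 RNAi, at 12.0, 13.9, 10.9 and 13.9 RPKM after p53 RNAi and at 34.6, 30.7 and 36.3 RPKM after unc22 RNAi. The 3 groups did not overlap. The log2 fold change of zfp1 over p53 was -1.66 ± 0.19 (SE; limma, Benjamini-Hochberg adjusted p = 6e-07), and it was called under every alternative tried. SMED30000690, the next, stood at 2.24, 2.52, 1.88 and 0.851 RPKM in zfp1 libraries, at 2.82, 3.59, 3.47 and 2.83 RPKM in p53 libraries and at 23.4, 21.2 and 16.9 RPKM in unc22 libraries. Its difference from p53 RNAi was -0.58 ± 0.18 (limma, adjusted p = 0.036), and this call ended in 14 of 26 alternatives. Without zfp1 replicate 5, the lowest of its libraries, the difference was -0.38 ± 0.17 and not called.

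Of the rises, SMED30003742 stood at 8.70, 9.15, 9.64 and 18.8 RPKM in zfp1 libraries, at 5.53, 4.10, 3.81 and 4.96 RPKM in p53 libraries and at 1.32, 2.50 and 4.57 RPKM in unc22 libraries. Replicate 5 was the highest library of both the zfp1 and the unc22 group. The log2 fold change of zfp1 over p53 was 1.11 ± 0.22 (SE; limma, Benjamini-Hochberg adjusted p = 0.0013). Against the control it was 1.75 ± 0.24 (limma, adjusted p = 5.2e-06), and not called in the 7 libraries alone. SMED30010375 had 98.6, 98.5, 91.4 and 213 RPKM in zfp1 libraries, against 54.0, 71.1, 49.2 and 68.8 RPKM in p53 and 26.8, 19.1 and 87.9 RPKM in unc22 libraries. Both replicate 5 libraries were again the high ones, and unc22 replicate 5 came close to the lowest zfp1 library. Its log2 fold change over the control was 1.69 ± 0.34 (limma, adjusted p = 0.0014), 2.04 ± 0.27 and again called without both replicate 5 libraries, and not called in the 7 libraries alone. The difference from p53 RNAi was 0.95 ± 0.31 (limma, adjusted p = 0.048), a call that ended in 16 of 26 alternatives.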

How the data were processed

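PolyA RNA of sorted X1 cells was sequenced from 100 ng of RNA per library with the Illumina TruSeq kit, per the labels' protocols. The authors deposited RPKM values for 25462 transcripts in 35 libraries of 9 groups. CASAVA 1.8.2, Bowtie and edgeR are listed without a role in the submitters' processing notes, and the transcript assembly is not given in the sources used here. With numpy 2.4.6 the RPKM values were turned back into reads as whole multiples of the value of 1 read, and all values (100%) came out whole within 0.01 reads. Totals ranged from 4391559 to 26115474 reads, and for 3 libraries the smallest total that explained the values was taken. Values of few reads are imprecise, and this limit covers counting error only.

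RPKM is not a count, so limma 3.58.1 in R 4.3.3 was run on log2(RPKM + 1) with an intensity trend and 9 group means over all 35 libraries. The test took transcripts that reached 1 RPKM in 3 or more libraries, with Benjamini-Hochberg adjustment over all 19206 and calls at 0.05. The test was run on simulated data with independent noise of equal spread in every library. Uneven libraries and deviations shared between libraries were not simulated, so the test was not checked under them. 4 comparisons were the main ones: zfp1 with unc22 and with p53 at day 13, and the zfp1 effect at day 13 minus that at days 6 and 9. Other differences were fitted in the same model, each adjusted on its own. These were zfp1 with unc22 at days 6 and 9, zfp1 at day 13 with unc22 at day 9, p53 with unc22 at day 13, and unc22 at day 13 with days 6 and 9. The members and lists were chosen with earlier results of these data known. Named transcripts followed a rule: the 10 largest falls and rises without overlap between groups, the 4 most abundant of each, and the 2 of each that also differed from p53 RNAi or from day 6. Identifiers are printed for at most 2 of each since they carry no gene names. SMED30022975, the 1 transcript that differed from day 9, was added after its values were seen. Replicates 1, 4 and 5 occur in both groups, and their deviations from the group means correlated at 0.52, 0.18 and 0.58 between same-numbered libraries. Some differently numbered ones correlated as much, at 0.50 and 0.40 for zfp1 replicate 2 with unc22 replicates 1 and 4 and 0.25 for zfp1 replicate 1 with unc22 replicate 4, while replicate 5 of either group correlated negatively with the other numbers. Deviations from a group mean cancel out within the group, so an outlying library by itself makes the others deviate the other way. The labels do not say what a number marks, so the block of same-numbered libraries within a day rests on these correlations alone.

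Alternatives were pseudocounts of 0.1 and 5 RPKM, other filters and scalings, robust empirical Bayes, limma-voom on recovered reads, thinned reads, library quality weights, the replicate block, the compared groups alone, a log2 fold minimum of 1, day 9 controls and leaving out libraries.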

Additional observations from a re-analysis of the deposited data

Results flagged for a closer look

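Replicate 5 of zfp1 RNAi at day 13 lay far from the other 3 libraries of its group in 5 of 18 quantities looked at in groups of 4 libraries, where chance gives about 1 in 20. It had 5021 transcripts at 0, a total of 9.92 M reads and 0.756% of reads in the transcripts called lower. SMED30003742 stood at 18.8 RPKM there, against 8.70 to 9.64 RPKM in the other zfp1 libraries, and SMED30010375 at 213 RPKM, against 91.4 to 98.6 RPKM. The count at 0 had already set this library apart, and the read share and both transcripts come from lists chosen on it. These quantities are not independent, so their number against that rate is no test.

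The zfp1 effect differed between days 13 and 6 by a log2 fold change of -3.57 in SMED30002134, -2.47 in SMED30011419, 2.15 in SMED30012371 and 1.90 in SMED30006136. Between days 13 and 9 it differed by -1.21 in SMED30022975. These 5 differences were past the threshold of the limma test of the difference itself with all libraries. None was when the compared groups were fitted alone with all their libraries. Without both replicate 5 libraries in that fit, SMED30022975 was past it (limma, adjusted p = 0.043).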

How the results depend on the processing

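The 851 transcripts called for zfp1 against unc22 RNAi at day 13 (443 higher, 408 lower) became 190 (71, 119) in the compared groups alone, 94 (30, 64) with the replicate block there, 4191 (1938, 2253) with library quality weights and 3258 (1482, 1776) with these in limma-voom. They became 383 (184, 199) with a mean of at least 5 RPKM and 358 (174, 184) where a log2 fold change of 1 was also required, both of which test or admit fewer transcripts. The replicate block gave 674 higher. Leaving out single libraries of the 7 compared gave 686 to 941 calls, 316 to 452 higher and 325 to 489 lower. Of the libraries that enter through the shared spread alone, zfp1 day 6 replicate 1 moved the count most, to 1093 (557, 536).

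The difference between days 13 and 6 (46 calls) gave 104 without the 3 libraries with most transcripts at 0, 23 without both replicate 5 libraries, 635 with quality weights, 348 with these in limma-voom, 28 with a mean of at least 5 RPKM, 23 with thinned reads, 117 with the replicate block, and 0 in the 3 fits on the compared groups alone (all libraries, no replicate 5, replicate block). Single libraries left out gave 29 (zfp1 day 13 replicate 2 out) to 71 (zfp1 day 6 replicate 2 out), and 30 with zfp1 day 13 replicate 1 or unc22 day 6 replicate 1 out. The difference between days 13 and 9 (1 call) gave 2 without the 3 libraries, without replicate 5 (also alone), with quantile scaling and with the replicate block, 3 with a pseudocount of 5 RPKM, 341 and 148 with both kinds of quality weights, 0 in the compared groups alone without and with the block, and 1 to 2 with single libraries left out.

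The zfp1 to p53 difference at day 13 (1976 calls) gave 1078 without replicate 5, 555 in the compared groups alone, 1108 with cyclic loess, 4863 and 4518 with quality weights, 1021 with a mean of at least 5 RPKM, 1271 with quantile scaling, 1227 with thinned reads, 914 with the replicate block, 351 with a log2 fold minimum of 1, and 875 to 3080 with single libraries left out. The cause of these shifts was not tested. No named transcript changed direction, and shares of same sign at days 6 and 9 kept their side. Falls to a few reads are limited by depth in their size.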

Other observations

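Lengths recovered with the reads had a median of 1342.5 bases in the lower list and 1506 bases in the higher list, against 1074.5 bases over all tested transcripts. Of the 169 transcripts called lower at day 6, 130 (76.9%) were also called lower at day 13, and of the 206 called lower at day 9, 167 (81.1%), where 2.12% of all tested transcripts were. Of the 81 called higher at day 6, 50 (61.7%) were also called higher at day 13, and of the 415 called higher at day 9, 252 (60.7%), where 2.31% of all tested transcripts were. The 67 higher transcripts called in all 5 fits were all positive at day 9 and 66 were positive at day 6, as were 47.9% and 42.0% of all tested transcripts. The 113 lower ones were all negative at day 9 and 111 were negative at day 6, as were 52.1% and 58.0% of all tested transcripts.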
